A study of Mus musculus with 6 samples.

Results

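The 269 regions described here are the autosomal stretches of the mouse genome at which methylated DNA was captured more in transgenic than in wild-type lung. They are the rows on chromosomes 1 to 19 of the authors' deposited table of differential regions in which the transgenic read concentration was above the wild-type one. That table held 407 regions in all, and 356 of them were autosomal, of which the other 87 were lower in the transgenic animals. The regions were thus chosen by the authors' fold and FDR, and their values in the contrast of transgenic with wild type are given as a description, without a test.

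Whole lungs of 6 mice aged 12 to 16 months were used, 3 carrying a transgene and 3 wild type, and the labels call the animals of each group biological replicates. The transgene, written SPC-DNMTdelta3B/DG in the labels, is a deletion variant of the de novo DNA methyltransferase DNMT3B driven by the promoter of surfactant protein C, a gene of alveolar type 2 cells. The genotype label of transgenic replicate 2 reads SPC-DNMTdeltaB/DG, and its group was taken from its title. Several founder lines passed the transgene on, and neither the line nor the sex of these animals is given in the sources used here. In MBD-seq, fragments of genomic DNA that bind a methyl-CpG-binding domain are captured and sequenced, and peaks of enrichment were called in each library separately. DNA of whole lung holds all its cell types, so a change of methylation within cells and a change in the mix of cells cannot be told apart, and captured DNA gives no expression markers by which the tissue label could be checked.

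DNA methylation in mammals lies mostly on cytosines followed by guanine, called CpG sites. Most CpG sites outside of CpG islands are methylated in adult tissue, while islands at the promoters of active genes are usually not. Promoters of many germline genes are an exception, since they hold CpG-rich sequence that DNMT3B and its relatives methylate in the embryo and that stays methylated in somatic cells. A methyl-CpG-binding domain binds best where many methylated CpG sites lie close together, so the height of an MBD-seq peak follows both the methylation and the density of CpG sites.

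A promoter lay at few of the regions, and promoter sequences are shown so that their CpG sites can be read beside the regions. The authors' annotation put a transcription start within 1000 bp of 10 of the 269 regions (3.72%) and of 6 of the 87 lower regions (6.90%). For 3 of the 10 the gene was found in the RefSeq promoter table (build GRCm38.p6). These were Dazl, an RNA-binding protein gene of germ cells, Lhcgr, the luteinizing hormone receptor gene, and Mtln, the gene of a small mitochondrial protein. The 250 bases before each start are given from 5′ to 3′ on the gene's strand, with every CpG site in capitals. The promoter window of the predicted gene Gm52195 on chromosome 15 was also overlapped, by a region at Gtsf1. It is not shown, since the authors' annotation has no start within 1000 bp of that region.
Dazl, chr17:50293621-50293870, minus strand: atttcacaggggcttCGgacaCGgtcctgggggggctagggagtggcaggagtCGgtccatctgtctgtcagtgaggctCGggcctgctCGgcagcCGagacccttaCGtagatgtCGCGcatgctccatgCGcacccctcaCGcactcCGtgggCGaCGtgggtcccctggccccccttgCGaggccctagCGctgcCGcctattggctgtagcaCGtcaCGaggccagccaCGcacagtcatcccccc
Lhcgr, chr17:88792015-88792264, minus strand: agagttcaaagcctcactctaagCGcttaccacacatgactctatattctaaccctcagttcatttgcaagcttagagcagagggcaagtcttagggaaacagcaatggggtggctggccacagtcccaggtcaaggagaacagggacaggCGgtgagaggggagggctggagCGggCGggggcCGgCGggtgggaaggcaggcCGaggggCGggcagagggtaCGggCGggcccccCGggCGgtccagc
Mtln, chr2:127792489-127792738, minus strand: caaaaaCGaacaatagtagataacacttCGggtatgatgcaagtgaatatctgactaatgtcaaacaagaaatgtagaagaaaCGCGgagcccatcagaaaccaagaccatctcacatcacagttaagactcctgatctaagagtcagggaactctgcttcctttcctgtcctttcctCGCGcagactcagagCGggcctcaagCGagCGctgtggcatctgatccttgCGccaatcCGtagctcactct

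The Dazl promoter held 20 CpG sites in these 250 bases, and 81.6% of 31396 such windows of autosomal RefSeq transcripts held fewer. Lhcgr had 12 sites (66.0% of windows held fewer) and Mtln had 11 (63.9%), and the median over all windows was 6. The differential region contained all 250 bases of the Dazl window and 76 bases of the Lhcgr window, and none of the Mtln window, which ended short of its region. The hexamer TCCCGC, the core of an E2F site found in many germline promoters, and the E-box CACGTG were searched on both strands. Neither was in any of the 3 windows, while 17.1% and 6.02% of all windows held them.

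The 269 regions were 0.306% of the 87959 autosomal regions tested, where a tested region is a stretch of merged peaks with a peak in 3 or more of the 6 lists. The lower regions were 0.0989%. Most of the higher regions were places that all 6 lungs captured. Their median read concentration was 6.58 in transgenic and 6.00 in wild-type lung in the authors' deposited table (log2), and the median log2 fold was 0.62, which is 1.54-fold. The middle 50% of the log2 folds in the authors' deposited table ran from 0.50 to 0.82. Of the authors' deposited table, 52 regions had log2 folds at or above 1, which is 0.0591% of those tested. The FDR ran from 4.80e-07 to 0.0996 in the authors' deposited table, and 137 regions (0.156% of those tested) had an FDR at or under 0.0498.

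Fold and concentration were tied closely. Across the 269 regions of the authors' deposited table, Spearman's rho was -0.85 between log2 fold and mean concentration and 0.97 between concentration and width. These are correlations over regions of the same libraries, and a fold must be larger to pass an FDR limit where reads are few. The 26 regions with a mean concentration under 4 in the authors' deposited table had a median log2 fold of 1.56 and a median width of 499 bp. The 51 regions with a concentration of 7 or more had a median log2 fold of 0.44, from 0.31 to 0.66, and a median width of 1963 bp in the authors' deposited table. At the lower edge of the rule, the 3 smallest log2 folds among the higher regions were 0.31 at Gm27166, 0.34 at Mup-ps5 and 0.34 at Fgf12 in the authors' deposited table. The nearest values below 0 in the authors' deposited table were -0.67, -0.78 and -0.81, so that it lists no autosomal region between -0.67 and 0.31. It holds only the differential regions, and the folds of the other tested regions are not listed.

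**Figure D1:**
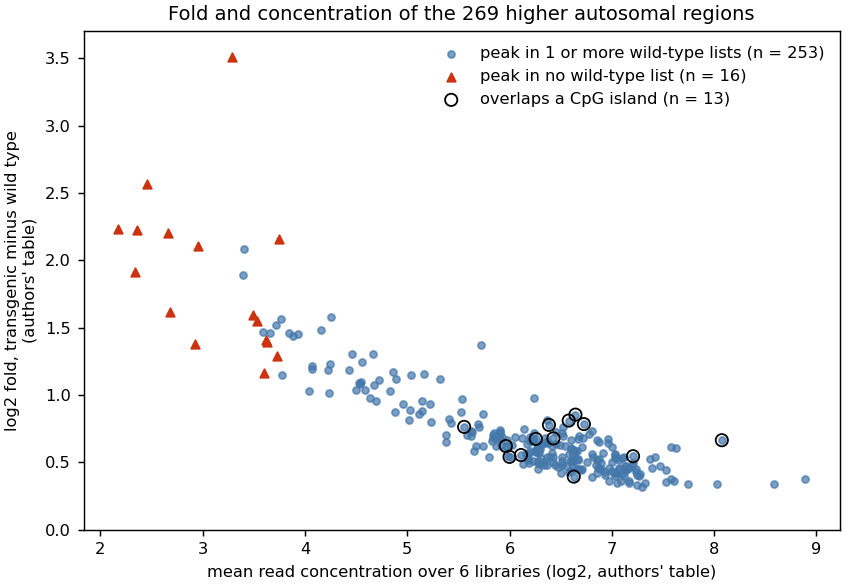
Log2 fold of each of the 269 regions (vertical axis) against its mean read concentration over the 6 libraries (log2, horizontal axis), both from the authors' deposited table. Red triangles are the 16 regions with no wild-type peak, which lie under a concentration of 4, and black circles are the 13 regions that overlap a CpG island, which lie between 5.56 and 8.07.

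The peak lists give scores at these regions library by library, though no wild-type list had a peak at all 269. The regions are merged peaks of these same lists, so the lists are not a separate source. Peak scores are values of the peak caller the authors ran, with 50 as the lowest, and they are not scaled between libraries. At the 269 regions the median of the highest score was 1143, 820 and 460 in transgenic replicates 1, 2 and 3, each with a peak at all 269. It was 211 over 230 regions in wild-type replicate 1, 545 over 252 in replicate 2 and 90.3 over 199 in replicate 3. The groups overlapped, since wild-type replicate 2 lay above transgenic replicate 3 at 190 of the 252 regions where both had a peak (75.4%), and at 78.6% of the 60631 tested regions with both. Over all autosomal peaks the list medians were 125, 101 and 90.4 in transgenic against 74.8, 101 and 70.5 in wild-type lists, so the lists themselves differed before any region was chosen.

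Within its own list each library ranked these regions high, with 1 exception. The median percentile among the list's autosomal peaks was 99.3, 99.3 and 99.0 in transgenic replicates 1, 2 and 3 and 96.5 and 98.1 in wild-type replicates 1 and 2. In wild-type replicate 3 it was 75.7. The top 1% of peaks took in 156, 159 and 136 of the regions in transgenic lists against 35, 72 and 2 in wild-type lists. Wild-type replicate 3 had 28399 autosomal peaks over 6.37 Mb with a median width of 196 bp, against 56785 to 114780 peaks of 374 to 457 bp in the other 5 lists. Its peaks covered a median of 31.6% of a region and broke 114 of the regions into 2 or more peaks, while the others covered 80.5% to 94.5%. The part of this library's short list in the fold could not be tested, since the authors' deposited table gives concentrations by group and not by library.

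The closest match in list length was between transgenic replicate 2 and wild-type replicate 2, with 110715 and 105796 autosomal peaks and list medians of 101 in both. At the 252 regions with a peak in both lists the transgenic score was higher at all 252, with a median ratio of 1.58. Over the 76880 tested regions with a peak in both, it was higher at 57.3%, with a median ratio of 1.07. These 2 libraries are part of the contrast that chose the regions, so the counts describe the regions and do not test them.

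A peak was present in all 6 lists at 197 of the 269 regions (73.2%), against 19.0% of tested autosomal regions. Without wild-type replicate 3, 229 regions had a peak in every other list. All 3 transgenic lists had a peak at 269 of 269 regions, where 68.9% of tested regions did. At 79 regions (29.4%) the lowest transgenic score was above the highest wild-type score, against 13.8% of tested regions. At 16 regions (5.95%, against 3.32% of tested regions) no wild-type list had a peak. The choice of regions used this contrast, and nothing is read from these shares.

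**Figure D2:**
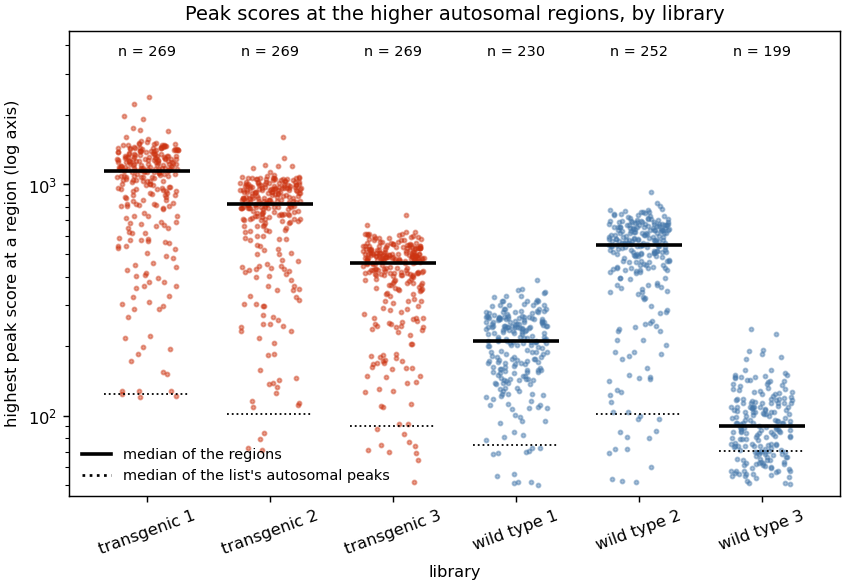
Highest score of the peaks at each of the 269 regions (log axis) in the 6 libraries, transgenic in red and wild type in blue, with 1 point for each region that has a peak (n above each column). Thick lines are the medians over regions (1143, 820 and 460 in transgenic, 211, 545 and 90.3 in wild type), and dotted lines are the medians of all autosomal peaks of the same list.

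As a check of the lists as wholes, the number of autosomal peaks was 100077 ± 22040 (SD, n = 3) in transgenic and 63660 ± 39154 (SD, n = 3) in wild-type lung. The difference of 36417 peaks was within the spread between animals (two-sided exact permutation test over 20 splits, p = 0.20, where 3 against 3 cannot go below 0.10). Leaving out wild-type replicate 2 gave 57485, and leaving out replicate 3 of that group gave 18786.5. The number of reads per library is unknown, and its part in these list lengths was not tested.

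Width set the higher regions apart in size from most tested regions. The median width was 1222 bp, from 295 to 5454 bp, against 569 bp over all tested autosomal regions and 568 bp over the lower regions. Of the tested regions of 1500 to under 2000 bp, 57 of 1102 (5.17%) were among the 269, and of those from 1000 to under 1500 bp 99 of 5932 (1.67%). From 2000 bp up the count was 23 of 486 (4.73%). Under 500 bp it was 16 of 29037 (0.0551%). Of the lower regions, 33 of 29037 (0.114%) were under 500 bp, 1 of 1102 (0.0907%) from 1500 to under 2000 bp and 2 of 486 (0.412%) wider. Wider regions hold more reads, and the part of read number in this rise was not tested.

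The 5 widest regions were also the 5 with the highest mean concentration, a read total that grows with width. The widest of all covered 5454 bp (chromosome 8, 52303477 to 52308930, mm10), 23991 bp from Gm6463, and the authors' deposited table gives it a mean concentration of 8.89 and log2 fold 0.38. Its scores were 825, 601 and 313 in transgenic lists against 206 and 435 in wild-type replicates 1 and 2, with no peak in replicate 3. These were below the medians over the 269 regions in each of the 5 lists. The next, of 4818 bp on chromosome 7 (72650148 to 72654965), lay 799 bp from the ribosomal protein pseudogene Rpl17-ps10, and its log2 fold was 0.34 by the authors' deposited table. Its scores were 815, 602 and 261 in transgenic and 101, 451 and 57.5 in wild-type lung. The others of the widest 5 were a 3486 bp region nearest to Gm32412 on chromosome 4, one inside Fgf12 on chromosome 16 and one inside Bcl11b on chromosome 12. Fgf12 encodes an intracellular fibroblast growth factor homologue that binds sodium channels. Wild-type replicate 2 had a higher score than transgenic replicate 3 at all 5.

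The 5 regions with the lowest FDR included 3 of moderate fold and strong capture. The first lay inside the sulfotransferase gene Sult2a3 on chromosome 7 (14086201 to 14088664), and the authors' deposited table puts its log2 fold at 0.61 and its FDR at 4.80e-07. Its scores were 1393, 1016 and 587 in transgenic lists against 253, 588 and 87.7 in wild-type lists. The region inside Sorcs2, a sorting receptor gene of the VPS10 family, lay on chromosome 5 (36237553 to 36240157) and is listed at log2 fold 0.61, FDR 1.04e-05, by the authors' deposited table. Its scores were 1488, 997 and 534 against 315, 636 and 99.4. On chromosome 19 a region from 49340238 to 49341673 lay 367848 bp from the nearest gene, Gm6975, which was exceeded among the 269 only by a region 367869 bp from Gm30778. Its log2 fold was 0.73 (FDR 1.04e-05) in the authors' deposited table. Across these 3 regions the highest wild-type value, that of replicate 2, was above transgenic replicate 3, by little at Sult2a3 and Gm6975, and below the other transgenic replicates.

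The 16 regions without a wild-type peak were narrow and weakly captured. Their median width was 470.5 bp, their median mean concentration 3.12 (log2) and their median log2 fold 1.77, from 1.16 to 3.51, in the authors' deposited table. A gene was touched by 12 of them (75%, against 60.8% of all tested regions). The largest fold was inside Dnmt3b-ps1, a Dnmt3b duplicate whose other name is Dnmt3c, at 153713425 to 153713719 of chromosome 2, where the transgenic scores were 558, 248 and 169. A neighbour 15801 bp away touched the same gene, with scores of 459, 186 and 185. These scores were the highest of the 16 regions in transgenic replicate 1. Whether reads of the transgene can align to this gene was not tested, since the sequence of the transgene is not used here.

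Others of the 16 lay inside protein-coding genes. A region in Slc25a21, a mitochondrial carrier gene on chromosome 12, had scores of 121, 72.8 and 92.2, and a region in Rrp15, a ribosomal RNA processing gene on chromosome 1, had 122, 114 and 70.8. Regions in Wdr19, a gene of intraflagellar transport (152, 137 and 77.1), in Sgcz, the zeta-sarcoglycan gene (288, 183 and 87.5), and in Vps13c, a lipid transfer protein gene (216, 133 and 149), were like these. Some scores of the 16 regions came near the lowest possible value of 50, down to 51.8 at a region 34113 bp from Gm31621 on chromosome 18. A missing wild-type peak at such a height does not show that methylation was absent, since the lists hold no value under 50. At Gtf2a1l and Slc25a21, as at the first region of Dnmt3b-ps1, the wild-type concentration was 0.66 in the authors' deposited table, the lowest it lists for these regions, and how such low read numbers act on their folds was not tested.

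A pair of these regions lay side by side on chromosome 17. One was inside Gtf2a1l, the gene of a germ-cell form of the transcription factor TFIIA, from 88706927 to 88707487, with transgenic scores of 128, 71.2 and 74.2. The other overlapped the start of Lhcgr, from 88791669 to 88792090 and 84182 bp on, with scores of 127, 79.4 and 110. Their log2 folds were 2.23 and 2.20 in the authors' deposited table, with FDRs of 0.0678 and 0.0861. The Lhcgr region reached 76 bases into the promoter sequence shown above. Just beside these in rank were the regions of Gm13578 on chromosome 2 and Plppr5, a neuronal membrane protein gene, on chromosome 3, listed at 2.08 and 1.89 (log2) by the authors' deposited table. Both had a peak in wild-type replicate 2 (scores 115 and 52.3) and in no other wild-type list.

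CpG islands were overlapped by 13 of the 269 regions (4.83%) in the authors' annotation, and 12 of them contained the island whole. None of the 87 lower regions overlapped an island. Within 2000 bp of an island the order was the other way, with 15 of the higher (5.58%) and 7 of the lower regions (8.05%). The lower regions were also narrower, with a median width of 568 bp against 1222 bp. These differences were not tested. Counts for all tested regions were not made, because the island annotation covers the differential regions alone. Islands were otherwise far off. The median distance to the annotated island was 186 kb for the higher and 36.9 kb for the lower regions, and 63.6% of the higher against 24.1% of the lower regions were more than 100 kb from it.

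Most of the 13 island regions were captured in every lung. Their log2 folds ran from 0.39 to 0.85 with a median of 0.67, against 0.62 for the other 256 regions, in the authors' deposited table. A peak was present in all 6 lists at 11 of them. The highest score in transgenic replicate 1 was inside Armc8, a gene of a ubiquitin ligase subunit, on chromosome 9 (99493686 to 99494760), with 2394, 1304 and 611 in transgenic against 245, 780 and 131 in wild-type lists. Inside Bcl11b, a zinc-finger transcription factor gene of T cells, a 2691 bp region on chromosome 12 (107915117 to 107917807) had 2240, 1202 and 671 against 274, 779 and 104. The region inside Soga3 on chromosome 10 (29196296 to 29197780) had the lowest FDR of the 13, 0.000772 in the authors' deposited table, and scores of 1987, 1609 and 736 against 385, 930 and 225, above those at Armc8 in the other 5 lists. At each of these 3 regions wild-type replicate 2 was above transgenic replicate 3.

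Outside chromosome 18, which the promoter table used does not cover, the Dazl region was the one island region with a RefSeq start inside it. It covered 50293034 to 50294397 of chromosome 17 and had scores of 1154, 792 and 519 in transgenic against 154, 580 and 136 in wild-type lists. All 6 lungs thus had a peak in the region that contains the CpG-rich Dazl promoter printed above. Whether each of these peaks reached the promoter bases was not resolved. Wild-type replicate 2 again lay between transgenic replicates 2 and 3. Its log2 fold was 0.68 (FDR 0.0416) in the authors' deposited table. The zinc-finger genes Zfp787 on chromosome 7 and Zfp746 on chromosome 6 held regions of log2 fold 0.78 and 0.67 in the authors' deposited table. The protocadherin alpha cluster on chromosome 18, a row of neuronal adhesion genes, held one of log2 fold 0.39, the smallest of the 13 in the authors' deposited table. Other island regions lay at Gm5522, Gm6540, Gm4839 and 3110067G11Rik, and 15122 bp from Gm20515.

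**Figure D3:**
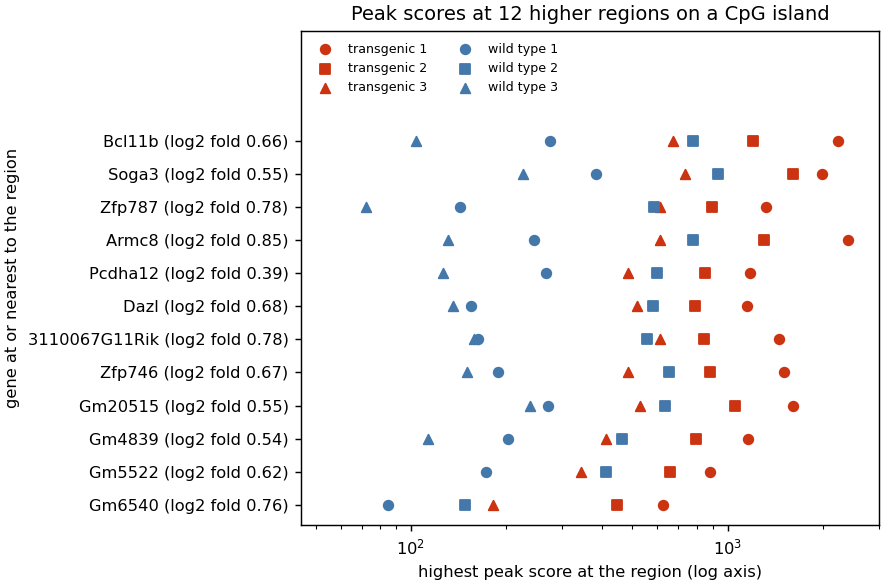
Highest peak score (log axis) at 12 of the 13 regions that overlap a CpG island, in transgenic (red) and wild-type (blue) replicates 1, 2 and 3, named by the gene at or nearest to the region with the log2 fold of the authors' deposited table. Transgenic replicates 1 and 2 are the highest values in every row, and wild-type replicate 3 has no point at Gm5522 and Gm6540.

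Most of the 269 regions lay outside genes. By RefSeq gene spans 114 (42.4%) touched a gene, against 60.8% of all tested autosomal regions and 70.1% of the lower regions. A protein-coding gene was touched by 91 (33.8%), against 51.6% and 55.2%. In the authors' own annotation 103 (38.3%) touched a gene, and 54 of the 87 lower regions did (62.1%). With each of the 114 assigned to the 1 gene that covered most of it, 90 (78.9%, against 81.6% of tested regions at a gene) were at a protein-coding gene, 14 (12.3%, against 12.9%) at a long noncoding RNA gene and 8 (7.02%, against 4.41%) at a pseudogene. Whether a region lay in an exon or an intron was not resolved.

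Width and strength of capture did not go with the share at genes in the same way. Of the 3485 tested regions at least 1222 bp wide, 63.7% touched a gene, and of the 16742 with a peak in all 6 lists 49.7% did. Of the 2099 that met both conditions 55.0% did. The 136 of the higher regions that were at least 1222 bp wide had a share of 35.3%, and the 197 with a peak in all 6 lists one of 37.6%. The 16 regions without a wild-type peak had 12 of 16 at a gene (75%), a small count, against 60.8% of all tested regions. The share over the 2916 tested regions with transgenic peaks only was not computed. No test was made of these shares, because regions of the same 6 animals are not replicates.

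Regions outside genes were also farther from them. The median distance to the nearest gene was 33.1 kb for the 155 higher regions outside genes, 17.2 kb for tested regions outside genes and 14.0 kb for lower ones. More than 100 kb from any gene were 26 regions (9.67%), against 4.19% of tested regions. Of tested regions with a peak in all 6 lists, 7.65% were that far. A median of 4 protein-coding genes had their midpoint within 500 kb of a region's centre, against 8 for tested and 9 for lower regions, and 35 regions (13.0%) had none, against 6.08% of tested regions. Tested regions with a peak in all 6 lists lay between, with a median of 6 genes and 11.1% without any. On the autosomes in the promoter table, the median distance to a RefSeq transcription start was 67.2 kb, against 28.5 kb for tested and 22.6 kb for lower regions. A start lay within 1000 bp of 4 of 250 regions (1.60%), against 3.31% of tested regions. Inside the region itself a start lay at 3 of the 250 (1.20%), against 1.19% of tested regions.

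**Figure D4:**
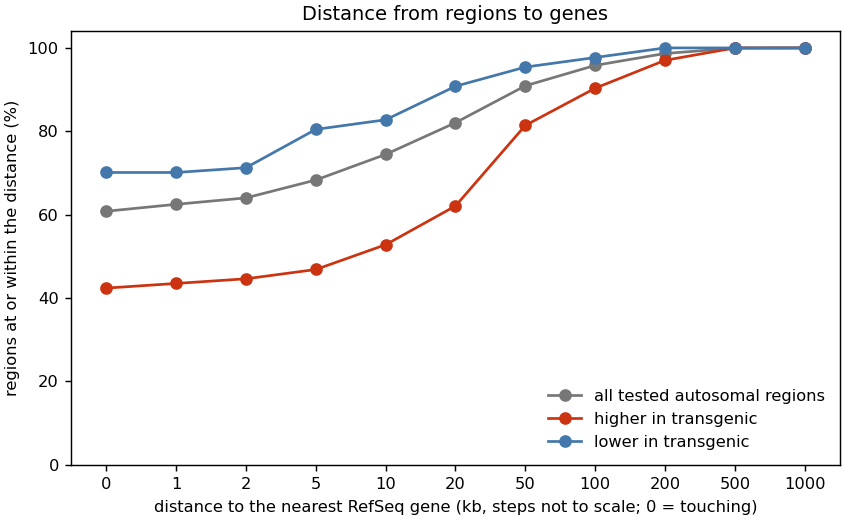
Share of regions (vertical axis) at or within a given distance of the nearest RefSeq gene (horizontal axis, kb, steps not to scale), for the 269 higher regions (red), the 87 lower regions (blue) and all 87959 tested autosomal regions (grey). At 0 kb, touching a gene, the shares are 42.4%, 70.1% and 60.8%, and at 20 kb they are 62.1%, 90.8% and 82.1%.

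By gene lists, olfactory and vomeronasal receptor genes, which lie in large gene clusters, were nearest to 10 of the 269 regions (3.72%), against 1.59% of tested regions, and none of the 10 touched its gene. Among them were regions near Olfr785 on chromosome 10 (log2 fold 1.17) and near Vmn1r230 on chromosome 17 (0.76), by the authors' deposited table. At the former the scores were 731, 499 and 265 in transgenic lung and 321 in wild-type replicate 2, with no peak in the other wild-type lists. Pseudogenes whose symbol says so were nearest to 15 regions (5.58%, against 2.03%), and 2 of these are the pair at Dnmt3b-ps1. Predicted genes with Gm or Rik symbols were nearest to 135 (50.2%, against 35.5%).

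Ion channel and synaptic genes were at 7 regions (2.60%, against 1.77% of tested regions), and all 7 lay inside their gene. The one inside Kcnk2, a background potassium channel gene on chromosome 1 (189249804 to 189250460), had scores of 1010, 693 and 415 in transgenic against 124, 344 and 71.1 in wild-type lists, with no overlap between groups. Its log2 fold was 1.12 (FDR 0.00297) in the authors' deposited table. Regions inside the potassium channel gene Kcnq5 and the contactin-associated protein gene Cntnap5c stood at log2 folds 1.09 and 1.08 by the authors' deposited table. The germline list had 2 regions (0.743%, against 0.140% of tested regions), those of Dazl and Gtf2a1l. It did not count the regions inside Gtsf1 and Morc1, so germ-cell genes outside the list are not in this count. Their log2 folds were 0.54 (FDR 0.000606) and 0.42 (FDR 0.0476) in the authors' deposited table. The list of the gonadal hormone axis also had 2 (0.743%, against 0.0750%), those of Lhcgr and of Esr1, the estrogen receptor alpha gene, with 1392, 1046 and 567 against 176, 575 and 191. The zinc-finger list had 3 regions (1.12%, against 1.21%), all named for genes with Zfp symbols, and did not count the region in Bcl11b. Protocadherins and cadherins had 2 (0.743%, against 0.442%) and homeobox and T-box genes 1, near Lhx9 (0.372%, against 0.421%). The methylation machinery list had 2 (0.743%, against 0.0591%), both at Dnmt3b-ps1. No region was nearest to an imprinted gene, a microRNA gene, a lung cell marker or a lung tumour suppressor or oncogene of the lists, which were nearest to 174, 217, 133 and 287 tested regions. With 0.306% of tested regions called in all, a count of 0 from so few tested regions says little. Counts of 2 say little as well where the germline, gonadal hormone axis and methylation machinery lists had 123, 66 and 52 tested regions. The lists were chosen with earlier results of these data known, so their shares are a description.

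Along the chromosomes every autosome held some of the regions. Chromosome 18 had 19, or 6.22 per 1000 tested regions, followed by chromosome 1 with 27 (4.41), chromosome 6 with 21 (4.40) and chromosome 17 with 18 (4.34). Chromosome 11 had 9 (1.83), chromosome 5 had 13 (2.02) and chromosome 19 had 5 (2.09), and over all autosomes the value was 3.06. Chromosome 18 had 1 lower region. Over the 19 autosomes, Spearman's rho between regions per 1000 tested and protein-coding genes per Mb was -0.57, a description over chromosomes of the same 6 animals. The order was loose. Chromosome 17 stood outside it, with 11.5 protein-coding genes per Mb, against 5.84 on chromosome 18 and 13.5 on chromosome 11. So did chromosome 12, which had the fewest genes per Mb (5.80) but 2.81 regions per 1000 tested.

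**Figure D5:**
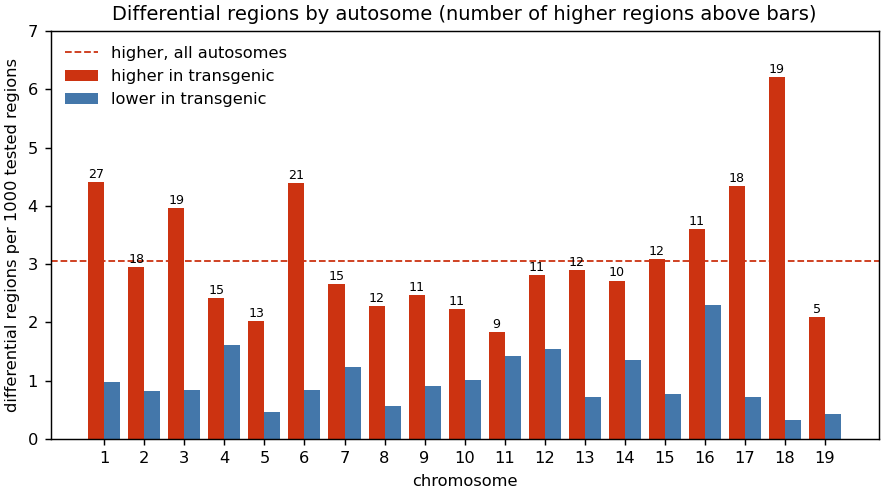
Differential regions per 1000 tested regions on each autosome, higher in transgenic lung in red (number of regions above each bar) and lower in blue, with the value for higher regions over all autosomes, 3.06, as a dashed line. Chromosome 18 is highest at 6.22 and chromosome 11 lowest at 1.83.

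The regions were scattered, with some close neighbours. The median gap between neighbouring regions was 5.31 Mb, from 7122 bp to 59.6 Mb. Another of the 269 lay within 1 Mb of 73 regions (27.1%), while 16.6% of the other tested regions had one of the 269 so near, and 11 of the 87 lower regions did (12.6%). Within 100 kb the shares were 5.95% (16 regions) and 1.77%, and within 5 Mb 68.4% and 59.6%. With gaps under 1 Mb the regions formed 32 pairs and 3 groups of 3, and no larger group.

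On chromosome 4 a group of 3 spanned 9493670 to 10492824. Its first members both lay inside Asph, the aspartate beta-hydroxylase gene, 8043 bp apart, with scores of 733, 547 and 369 and of 679, 691 and 392 in the transgenic lists. In the wild-type lists the scores were 56.2, 287 and 109 and 158, 252 and 109. Their log2 folds, 0.88 and 0.96, were close by the authors' deposited table, so these neighbours were alike in level and in fold, and their groups did not overlap. Another group on chromosome 4, from 17217150 to 18022100, ended inside Mmp16, a membrane-bound metalloproteinase gene, and the authors' deposited table lists its members at log2 folds 0.73, 0.65 and 1.03.

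Other neighbours were unlike each other. In the group on chromosome 1 from 44480353 to 44960733, a region of 1622 bp near Txn-ps1 with scores of 1424, 1067 and 566 against 244, 677 and 117 had a neighbour of 518 bp 15244 bp away. That neighbour had scores of 220, 258 and 205 in transgenic lists and no wild-type peak, and the pair is listed at 0.57 and 1.59 (log2 fold) by the authors' deposited table. On chromosome 6, 7122 bp separated a 1823 bp region with a peak in all 6 lists (1474, 993 and 481 against 273, 607 and 74.0) from a 304 bp region without a wild-type peak (186, 139 and 75.0). Their log2 folds were 0.64 and 2.22 in the authors' deposited table. Each of these pairs joined a wide region that had a peak in all lungs to a narrow one with peaks in the transgenic lists alone.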

How the data were processed

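MBD-seq peaks of 6 lungs and the authors' table of differential regions were analysed. Reads were aligned with Bowtie to mm10, and DiffBind and edgeR were used, per the submitters' processing notes, without versions. Concentrations and folds are on a log2 scale in the deposited table, their normalization is unknown here, and each p-value and FDR is the authors' own. The score in the deposited peak lists is the peak caller's value (names are those MACS writes), with no settings given. The FDR and p-value of the authors' table give 92205 tests, the number of merged regions (peaks sharing or touching at 1 bp) that hold peaks of at least 3 lists, and 87959 of these are autosomal. Starts are those of the deposited table, which equal the 0-based starts of the lists.

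Genes were 49943 RefSeq spans of GRCm38.p6, the assembly of mm10, and the authors' Ensembl identifiers were matched by a reciprocal overlap of 0.5 (246 of 315). The promoter table used has no chromosome 18. Regions named were the 10 with the largest fold, the 5 each with lowest FDR, highest concentration and largest width, those on islands or within 1000 bp of a start, groups of 3 neighbours, the smallest folds, and up to 4 per gene list. The regions without a wild-type peak and the pairs within 100 kb were named, and the wide or shared tested regions were set beside them, after their values were seen. A result for 1 of the named island regions is not reported here. The regions and lists were chosen with earlier results of these data known. Python 3.11.15, pandas 2.3.3 and scipy 1.17.1 were used, and the region functions were tested on simulated data.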

Additional observations from a re-analysis of the deposited data

How the results depend on the processing

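The 269 regions became 137 at an FDR of 0.0498 or lower and 52 at a log2 fold of 1 or more. At that FDR the share with a neighbour within 1 Mb was 14.6% and the median width 1375 bp, while 36.5% touched a gene and 5.11% overlapped an island, against 38.3% and 4.83%. At that fold the neighbour share was 7.69%, 51.9% of regions touched a gene and 0% overlapped an island (0 of 52). The median width was then 560.5 bp and the score difference was 185. The island regions thus all lay under that fold, though their median log2 fold of 0.67 was above the 0.62 of the other regions. The neighbour shares at that FDR and at that fold come from smaller sets, which leave fewer possible neighbours. The share of other tested regions was not computed again for them, so a change in clustering cannot be read from these values. Over the 269 regions the neighbour share was 5.95% for 100 kb and 68.4% for 5 Mb, as larger windows must hold more. The mean of the transgenic median scores minus that of the wild type was 526, from 358 to 700 without any 1 library, and 9.11 percentile points within lists. A peak covering 50% or more of a region was found in all 6 lists at 22 regions, against 197 with any overlap. The difference in autosomal peaks was 18786.5 to 57485 without any 1 library.

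Paired by replicate number, the replicate block gave the same difference of 36417 autosomal peaks (exact sign-flip p = 0.25) and the same score difference of 526. The labels do not say that numbers pair the animals, and over 16742 regions the deviations of same-numbered libraries correlated at -0.04, 0.16 and 0.26. Read depth per library is unknown, which limits any statement on missing peaks.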

Other observations

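The ends of chromosomes held these regions at shares near those of tested regions. Within 10 Mb of the first tested region of a chromosome, on the centromere side, lay 25 of the 269 regions (9.29%, against 7.67% of tested regions), and within 10 Mb of the last lay 24 (8.92%, against 11.9%). Of the 87 lower regions 16 (18.4%) lay within 10 Mb of the last tested region. No region overlapped a microRNA hairpin of the RefSeq table.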
